A study of Mus musculus with 6 samples.

Results

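Late-numbered microRNAs, those whose name carries a number of 3000 or more, were described in mouse haematopoietic progenitors with and without the RNA-binding protein LIN28B. The deposited table listed 1184 miRNAs, of which 518 were late-numbered. The 279 members were selected on detection: a value above 0 in at least 4 of the 6 libraries. They are set beside the 570 earlier-numbered miRNAs (let-7 included) that passed the same rule of detection. The difference between the groups did not enter the selection. A miRNA seen in 1 group alone cannot be a member, because 4 libraries always span both groups of 3.

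MicroRNAs are small RNAs cut from a hairpin, and they repress mRNAs that pair with the seed, bases 2 to 8 from the 5′ end. Names are numbered in order of registration, so the high numbers are mostly entries found by deep sequencing, whose loci and functions have been little studied. Some are mirtrons, whose hairpin is an intron or the end of an intron. Where such a hairpin meets an intron end, the spliceosome, not the nuclear enzyme Drosha, makes the cut. Other late-numbered miRNAs lie inside small nucleolar RNAs (snoRNAs), which guide chemical modification of other RNAs. LIN28B, a protein of fetal and stem cells, binds the loops of let-7 precursors, often at GGAG, and blocks their maturation.

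Both groups were GMLPs, a progenitor population sorted from bone marrow, and both were cultured for 3 days with doxycycline (DOX), an antibiotic that switches on inducible transgenes. The ME libraries (n = 3, numbered 001 to 003) carried MLL-ENL, a fusion gene of leukaemia, and the L28BME libraries (n = 3, numbered 004 to 006) carried MLL-ENL and LIN28B. The comparison therefore asks about LIN28B on a shared MLL-ENL and DOX background, and holds no cells without the fusion. The labels used here give neither the promoters of the transgenes nor the age of the mice, nor do they say whether libraries came from separate mice or cultures. The p-values therefore measure library-to-library spread alone, and that spread may be technical.

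The ME libraries held 4760764 to 5510509 miRNA reads and the L28BME libraries 2733559 to 4310065, so 1 read was worth a scaled value of 0.189 to 0.312. Let-7 took 26.8% ± 0.703 (SD, n = 3) of miRNA reads in ME and 3.28% ± 0.0468 (n = 3) in L28BME, which was the check of LIN28B. All 5 myeloid marker miRNAs were listed, with sums from 182400 to 210200 across the ME libraries and from 188300 to 198400 across the L28BME libraries. Their means (ME and L28BME) moved both ways. miR-21a-5p had 41220 and 29390, miR-223-3p 81000 and 80280, and miR-223-5p 883.6 and 769.3. miR-142a-3p had 55720 and 59410, and miR-142a-5p 20780 and 23930. The 5 stromal and endothelial markers summed to between 188.7 and 208.4 (ME) and between 352.8 and 361.3 (L28BME), nearly all of it miR-199a-3p. The 4 erythroid markers summed to between 4.41 and 7.12 and between 9.68 and 10.8. The 3 lymphoid markers summed to between 2621 and 2891 and between 2980 and 3408, and the 2 megakaryocytic markers to between 5359 and 6195 and between 7565 and 8237. Members of these lists did not all move one way: miR-342-3p had means of 382.7 and 988.4 and miR-126a-3p 5508 and 7647, whereas miR-150-5p had 384.0 and 341.2, miR-181a-5p 1998 and 1817, and miR-10b-5p 2.91 and 1.73 (ME and L28BME). The part of these marker levels in the changes below was not tested. In these bulk libraries fewer cells of a type and less of an RNA per cell cannot be told apart.

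RefSeq (GRCm38.p6) gave a mature sequence for 249 of the 279 members. The sequences of the changed members are shown first, because the results refer back to their seeds, ends and loci. They run 5′ to 3′, with the seed in capitals. These members were higher in L28BME:
miR-3062-5p: gGAGAAUGuaguguuaccguga
miR-5121: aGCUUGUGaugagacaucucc
miR-3101-5p: gGUACCAUugacuaaagcuag
miR-6481: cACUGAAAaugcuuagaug
miR-7079-3p: uGACUUCUguucucuuuccag
miR-5123: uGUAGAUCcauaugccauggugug
miR-5125: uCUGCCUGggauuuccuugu
miR-6911-3p: uCAAUCACacucuguccacag
miR-3068-5p: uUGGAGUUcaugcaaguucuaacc
miR-3068-3p: gGUGAAUUgcaguacuccaaca

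These members were lower in L28BME, along with miR-5099 and miR-6539:
miR-7676-3p: uCCGGUGCucacucugcccaca
miR-6992-5p: uGCCUGUGaugguuuggcugagu
miR-6412: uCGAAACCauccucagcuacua
miR-3968: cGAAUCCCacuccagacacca
miR-5100: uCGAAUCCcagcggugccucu
miR-8103: uCUCCUGUucucuguucuccc
miR-3535: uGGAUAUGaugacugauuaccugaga

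The seeds hardly repeated. The 249 matched members had 245 different seeds, and 4 seeds were shared by 2 members each. A seed of an earlier-numbered miRNA of the table was carried by 8 members, among them miR-3473d with miR-674-5p, miR-7069-3p with miR-18a-3p, and miR-7670-3p with miR-204-5p and miR-211-5p. Their mature sequences were 18 to 26 bases long, with a median of 22 that equalled the median of the 462 matched earlier-numbered miRNAs. The median GC content was 52.2% in the members and 47.8% in the earlier-numbered miRNAs. A first base of U was seen in 56.2% and 36.4%, respectively.

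The members were numerous but scarce. A median member had a mean scaled value of 0.909 over the 6 libraries, against 12.4 for the earlier-numbered miRNAs. That level came from 24 reads over all 6 libraries together, and the scarcest member had 4. Of the 279 members 150 (53.8%) averaged under 1, 129 averaged at least 1, 21 at least 10 and 4 at least 100. Between 245 and 264 members had a read in any one library, and 188 had reads in all 6. The numbers 6900 to 7118 alone supplied 126 of the 279. Another 63 were numbered 3057 to 3970, 28 were numbered 5099 to 5627, 14 were numbered 6238 to 6899 and 48 were numbered 7219 to 12202. Of the names 152 ended in 3p and 87 in 5p, and 40 gave no strand.

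**Figure D1:**
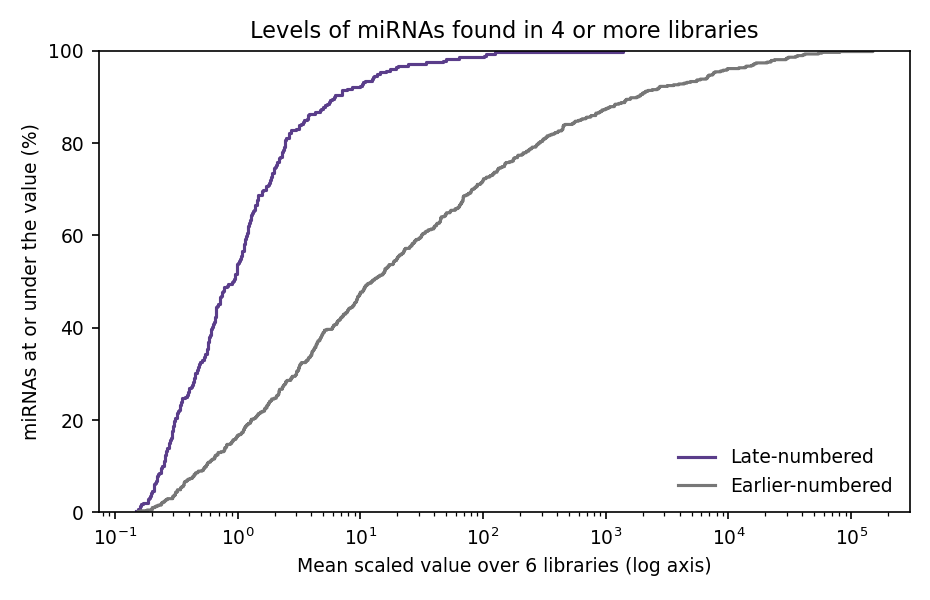
Cumulative percentage of miRNAs (vertical axis) at or under each mean scaled value over the 6 libraries (horizontal log axis), for the 279 late-numbered miRNAs and the 570 earlier-numbered miRNAs found in 4 or more libraries. The late-numbered curve lies to the left, with a median of 0.909 against 12.4.

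At the edge of the rule 52 late-numbered miRNAs were seen in exactly 4 libraries and 62 in exactly 3. The most abundant of those just inside were miR-3970 (mean value 1.90), miR-3082-5p (0.513), miR-7679-3p (0.481) and miR-6947-5p (0.446). Just outside lay miR-6903-3p (0.348) and miR-3112-5p (0.347), then miR-6933-3p (0.244) and miR-7008-3p (0.237). miR-6903-3p had 4, 3 and 2 reads in the L28BME libraries and none in ME, and miR-3112-5p had 4, 2 and 3 reads in ME and none in L28BME. Of the 62 miRNAs in exactly 3 libraries 4 were seen in all ME libraries alone, 4 in all L28BME libraries alone and 54 in a mixture. A count of 0 at these depths allows up to 3 reads, so absence was not shown for any of them.

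Together the members took a small share of miRNA reads. Their share was 0.240%, 0.216% and 0.238% in the ME libraries and 0.272%, 0.241% and 0.264% in the L28BME libraries. The L28BME libraries were all higher, by a narrow margin. The direction turned when let-7 reads were left out of the total: 0.316% ± 0.0192 in ME and 0.268% ± 0.0167 in L28BME (SD over 3 libraries). One miRNA, miR-5099, supplied 60.6% ± 2.195 of member reads in ME and 51.1% ± 2.48 in L28BME. Without it the members took 0.0911% ± 0.00323 of miRNA reads in ME and 0.127% ± 0.00255 in L28BME. That total again includes let-7, and the share without both miR-5099 and let-7 was not computed. Under the deposited scaling the summed values of all members were lower in L28BME, at 2740 ± 144.9 in ME and 2170 ± 116.3 in L28BME. The 10 most abundant members held 79.8% of the members' summed values.

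The change with LIN28B was tested by limma on log2(value + 1), with miRNAs kept at 5 or more in at least 3 libraries and p-values adjusted over all of them. That filter left 36 of the 279 members, of which 10 passed upward and 9 downward in L28BME (adjusted p under 0.05). Over all 387 tested miRNAs 24.0% were higher and 32.0% lower. The 19 of 36 members called (52.8%) therefore stood close to the 56.1% called among all tested miRNAs. The filter was reached through 1 group alone by 5 of the 36, which had to differ: miR-7676-3p and miR-6992-5p through ME, and miR-6481, miR-3101-5p and miR-5125 through L28BME. The median change was -0.11 on the log2 scale for the 36 members and -0.01 for all 387 miRNAs.

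**Figure D2:**
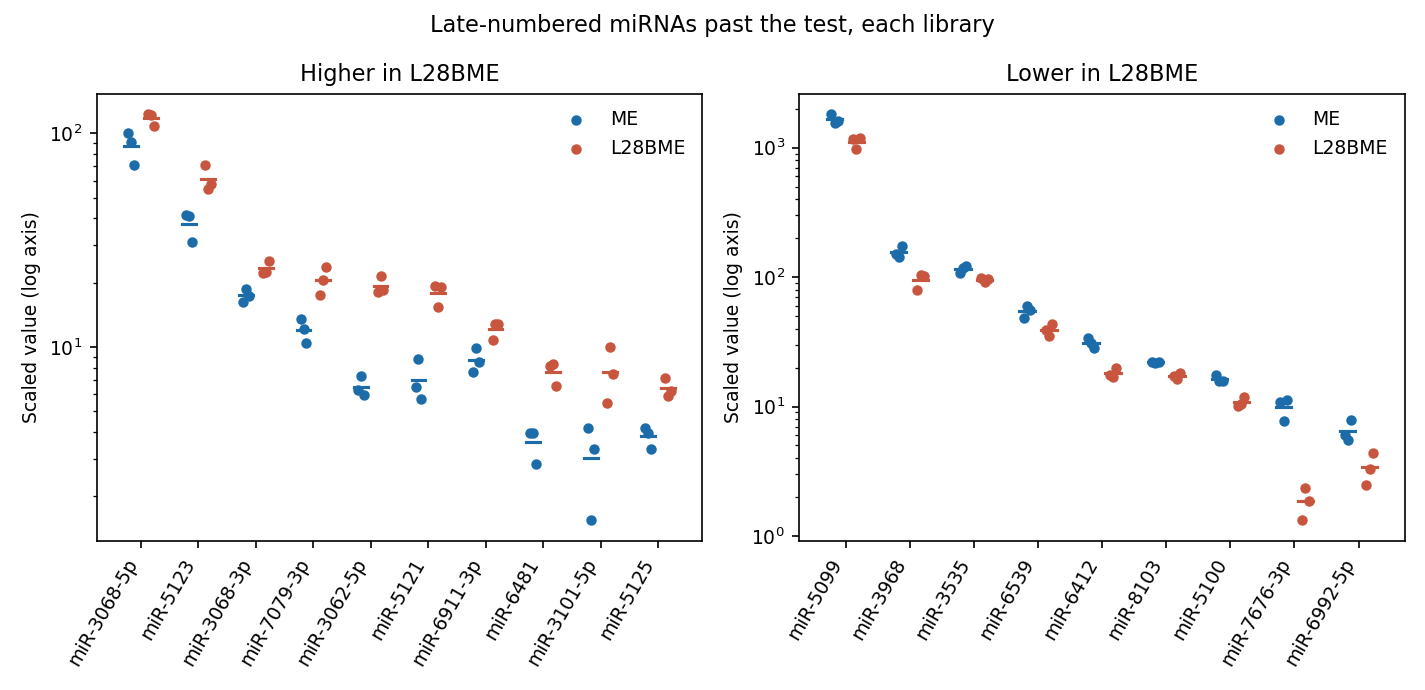
Scaled values (vertical log axis) of the 19 late-numbered miRNAs past the test, in each ME and L28BME library (points) with group means (bars), for the 10 higher (left) and 9 lower (right) in L28BME. The ME and L28BME points of each miRNA do not overlap, and miR-3062-5p, miR-5121 and miR-7676-3p show the widest gaps.

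The largest rises on the log2 scale were those of miR-3062-5p and miR-5121. miR-3062-5p lies on chr11:68990574-68990678 (minus strand) over an intron of 97 bases in Pfas, which encodes an enzyme of purine synthesis. It had 6.26, 7.28 and 5.93 in the ME libraries and 18.1, 21.5 and 18.4 in the L28BME libraries. The groups were far apart, with a ratio of means of 2.98 and a log2 change of 1.44 (SE 0.157, adjusted p = 3.21e-06). miR-5121 lies on chr7:45126918-45126991 (minus strand) inside Snord33, a snoRNA in an intron of the ribosomal protein gene Rpl13a. Its values were 6.49, 8.83 and 5.69 in ME and 19.3, 15.4 and 19.1 in L28BME. All L28BME libraries were again higher, with a ratio of 2.56 and a log2 change of 1.25 (SE 0.179, adjusted p = 4.68e-05).

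Both strands of the miR-3068 hairpin rose together. The hairpin (chr12:87437679-87437757, minus strand) overlaps Alkbh1, which encodes a demethylase, and the non-coding Gm29362, and the annotation also lists it as a snoRNA. miR-3068-5p had 100.4, 91.4 and 71.2 in ME and 123.5, 121.7 and 108.4 in L28BME. Its scarcer partner miR-3068-3p had 16.2, 18.8 and 17.3 in ME and 22.3, 22.5 and 25.3 in L28BME. The log2 changes were close to each other, 0.43 (SE 0.125, adjusted p = 0.00937) for the 5p strand and 0.40 (SE 0.131, adjusted p = 0.0177) for the 3p strand. The call for miR-3068-3p was lost without ME library 001 (adjusted p = 0.0524) or L28BME library 006 (0.0944).

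miR-7079-3p and miR-6911-3p, which also rose, end where an intron ends. miR-7079-3p (hairpin chr8:123104975-123105043, plus strand) finishes on the last bases of an intron of Rpl13, another ribosomal protein gene. It had 13.4, 12.1 and 10.4 in ME and 17.6, 20.6 and 23.7 in L28BME, without overlap, for a log2 change of 0.73 (SE 0.156, adjusted p = 0.00141). miR-6911-3p (hairpin chr10:80278164-80278232, plus strand) finishes at an intron end of Dazap1, which encodes an RNA-binding protein. In transcripts annotated with a retained intron the bases of miR-7079-3p are exonic. The miR-6911-3p values of 7.65, 9.93 and 8.54 in ME and 10.8, 12.8 and 12.8 in L28BME gave a log2 change of 0.44 (SE 0.165, adjusted p = 0.0357). That call was lost when any of ME libraries 001 and 003 or L28BME libraries 005 and 006 was left out, with adjusted p-values of 0.107, 0.05004, 0.109 and 0.124.

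The other members that rose lie within genes or opposite one. miR-5123 (hairpin chr4:40850056-40850138, minus strand) is in an intron of B4galt1, a galactosyltransferase gene. It was the most abundant of this set, at 41.3, 41.1 and 31.1 in ME and 70.9, 54.7 and 58.1 in L28BME, a log2 change of 0.68 (SE 0.138, adjusted p = 0.000971). miR-3101-5p, from Rab4b, a gene of vesicle traffic, had 4.17, 1.55 and 3.32 in ME and 5.48, 9.94 and 7.50 in L28BME (log2 change 1.14, SE 0.280, adjusted p = 0.00388). Its groups do not overlap, and its SE was the largest among the 10. miR-5125, from an intron of Srrm2, a splicing factor gene, had 4.17, 3.97 and 3.32 against 7.18, 5.92 and 6.25 (log2 change 0.63, SE 0.199, adjusted p = 0.0157). miR-6481 had 3.94, 3.97 and 2.85 in ME and 8.13, 8.29 and 6.56 in L28BME (log2 change 0.92, SE 0.205, adjusted p = 0.00186). Its locus is on chr3:99199344-99199453 (minus strand) opposite Wars2, and its 19 bases also occur whole in mt-Tf, the mitochondrial phenylalanine tRNA, so reads from these sources cannot be told apart.

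Among the 9 members that fell in the main test, miR-7676-3p had the largest log2 change. Its 22 bases occur at 2 hairpins on chromosome 15, chr15:78284788-78284849 (minus strand) in Csf2rb2 and chr15:78348599-78348660 (plus strand) in Csf2rb. These genes encode beta subunits of receptors for myeloid cytokines such as interleukin 3, and the same bases are present in transcripts of both. The values were 10.9, 7.73 and 11.1 in ME and 1.32, 2.37 and 1.87 in L28BME, from 129 and 23 reads. Every ME library stood well above every L28BME library, with a mean 5.35-fold lower in L28BME and a log2 change of -1.94 (SE 0.229, adjusted p = 7.4e-06). Among the 9 falls of the main test it alone also passed with scaling by plain library size, at -1.55 (adjusted p = 1.87e-05).

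That scaling matters for the falls. Dividing by total miRNA reads moved the median of all tested miRNAs from -0.01 to 0.49 on the log2 scale. Of the 9 falls 7 then no longer passed. miR-6539, miR-3535 and miR-8103 turned to 0.0071, 0.22 and 0.14, none of which passed, and miR-6992-5p was below the filter. The falls below are therefore changes relative to the bulk of miRNAs under the deposited scaling.

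miR-5099, the most abundant member and the rank 65 miRNA of the table, fell. GENCODE M21 (GRCm38) places Mir5099 between genes on chr12:36816205-36816278 (plus strand). It had 1829, 1542 and 1614 in ME and 1162, 982.3 and 1186 in L28BME. The groups did not overlap, and the log2 change was -0.58 (SE 0.0958, adjusted p = 0.000181), a mean 1.497-fold lower in L28BME. With plain library size the change was -0.08 (adjusted p = 0.438).

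miR-3968 and miR-5100 share the run cgaauccca and both fell. miR-3968 (hairpin chr11:115447961-115448060, minus strand, opposite Trim80) had 151.6, 143.5 and 174.4 in ME and 79.8, 103.5 and 102.1 in L28BME. Its log2 change was -0.72 (SE 0.119, adjusted p = 0.000201). miR-5100 (hairpin chr11:60728663-60728726, plus strand, in an intron of Mief2) had 17.4, 15.9 and 15.9 in ME and 10.02, 10.4 and 11.9 in L28BME, a log2 change of -0.57 (SE 0.145, adjusted p = 0.00493). Both sets of libraries were apart. The 9 shared bases begin at the first base of miR-3968 and the second of miR-5100. miR-3968 ends in CCA, the ending of mature tRNAs, as did 5 of the 249 matched members (2.01%) and 0.866% of the earlier-numbered miRNAs. With plain library size the changes were -0.22 (adjusted p = 0.110) and -0.10 (adjusted p = 0.541).

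The remaining falls were moderate or small. miR-6412, between genes on chr10:122648339-122648435 (plus strand), had 33.6, 30.9 and 28.2 in ME and 17.4, 17.05 and 19.99 in L28BME (log2 change -0.74, SE 0.130, adjusted p = 0.000313). miR-6539, in an intron of Dock5 on chr14:67859636-67859745 (minus strand), had 48.2, 60.04 and 56.2 against 38.8, 34.8 and 43.4 (log2 change -0.48, SE 0.124, adjusted p = 0.00493). Neither pair of groups overlapped. miR-6992-5p, from Stx5a, a gene of Golgi transport, had 6.03, 5.52 and 7.83 against 2.46, 3.31 and 4.37 (log2 change -0.78, SE 0.229, adjusted p = 0.0108). Its call was lost without L28BME library 004 (adjusted p = 0.0503). miR-3535, inside the snoRNA Gm24148 of the nucleolin gene Ncl, had 108.5, 116.8 and 121.0 against 97.7, 91.6 and 96.8 (log2 change -0.27, SE 0.0963, adjusted p = 0.0279). miR-8103, from an intron of Osbpl7, had 22.0, 21.9 and 22.1 against 17.2, 16.3 and 18.1 (log2 change -0.34, SE 0.127, adjusted p = 0.0357). These last calls were narrow: miR-8103 lost its call without any 1 of the 6 libraries (adjusted p 0.0511 to 0.112), and miR-3535 without ME library 002 (0.067) or L28BME libraries 004 (0.0557), 005 (0.101) or 006 (0.0797).

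Among the 10 most abundant members miR-6399 and miR-3066-5p did not pass the test. miR-6399, from an intron of the translation factor gene Eif4g3, had 63.3, 75.0 and 64.3 in ME and 54.3, 55.2 and 69.3 in L28BME (adjusted p = 0.217). miR-3066-5p, from an intron of Nol10, had 36.2, 40.8 and 32.7 against 34.97, 26.04 and 35.9 (adjusted p = 0.281). Their groups overlap. The log2 changes were -0.18 and -0.18, and with plain library size 0.31 (adjusted p = 0.0275) and 0.30 (adjusted p = 0.0622).

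To bring in the 243 members under the filter, the fit was repeated over all 849 miRNAs found in at least 4 libraries. Of the 279 members 17 were higher and 11 lower, where 12.2% of the 849 miRNAs were higher and 14.8% lower. That was 28 of 279 members, against 27.1% of all 849. The shares followed the level. At a mean of 10 or more 11 of 21 members were called (52.4%) against 54.2% of the 299 earlier-numbered miRNAs. Between 1 and 10 it was 13.9% of 108 members against 20.5% of 176, and under 1 it was 1.33% of 150 against 4.21% of 95. The difference between late- and earlier-numbered shares was not tested. The median change was 0.04 for the members and 0.04 for all 849. An unadjusted p under 0.05 was reached by 45 of the 279 members. That is a smaller share than the 27.1% of all 849 called after adjustment.

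**Figure D3:**
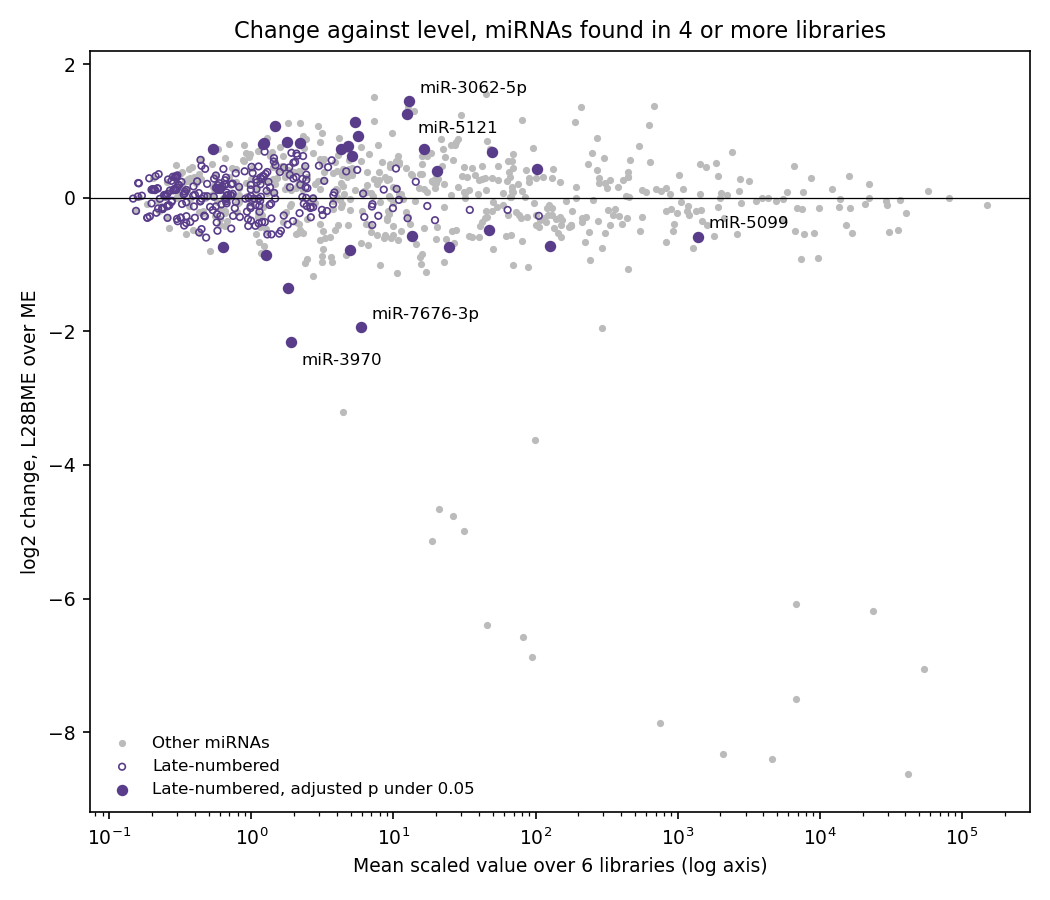
Log2 change, L28BME over ME (vertical axis), against the mean scaled value over 6 libraries (horizontal log axis) for the 849 miRNAs found in 4 or more libraries, with late-numbered members as rings, filled where the adjusted p was under 0.05. Called members become rare below a mean of 1, where 2 of 150 passed, and the grey points below -3 are let-7 and miR-98 strands.

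This wider fit kept 16 of the 19 calls, and miR-3535, miR-6911-3p and miR-8103 lost theirs. It added 12 others, named here after their values were seen. Those higher were miR-6238, both strands of miR-7091, miR-12191-3p, miR-3069-3p, miR-7043-3p, miR-7068-3p and miR-7656-5p, and those lower were miR-3970, miR-3112-3p, miR-5103 and miR-5622-5p. edgeR's quasi-likelihood test on the recovered reads, with the same 849 miRNAs, called 18 members higher and 12 lower, where 12.5% of all were higher and 16.5% lower. Both tools called 27 of the same members. In 35 members all L28BME libraries lay above all ME libraries and in 27 the reverse held, together 62 of 279. Over the 849 miRNAs 39.9% had groups that did not overlap. The authors' deposited table gave 14 of the 279 members a higher and 10 a lower value at an FDR p under 0.05. The share called over all miRNAs of that table was not computed. These counts therefore do not show whether members were called there more or less often than other miRNAs. The deposited table shared 15 of the 19 calls, with the same direction.

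The sharpest loss was that of miR-3970, which entered the rule by 1 read. GENCODE M21 places Mir3970 on chr19:33157112-33157201 (plus strand), opposite Rnls. It had 15, 20 and 14 reads in the ME libraries and 1, 0 and 0 reads in the L28BME libraries. The ratio of pooled reads, 49 in ME to 1 in L28BME, was 47.7 after scaling by library. Its exact 95% interval, from 8.17 to 1922, covers counting error only. The log2(value + 1) change of -2.15 (adjusted p = 3.99e-07) is smaller than that ratio because the pseudocount exceeds the L28BME values. miR-3112-3p, from Cstf2, a gene of mRNA 3′ end formation, had 3.25, 3.53 and 2.37 in ME and 0.378, 0.474 and 0.937 in L28BME (adjusted p = 0.000291). Its groups were well apart too, and its partner miR-3112-5p, named above, lay just outside the rule with reads in ME alone.

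The positions of the hairpins differed from those of earlier-numbered miRNAs. Of the 203 annotated hairpins that yielded a member 105 (51.7%) ended within 5 bases of the 3′ end of an intron, as against 12 of 514 earlier-numbered hairpins (2.33%). Among the 298 late-numbered hairpins without a member 30.9% did so. The feature belonged mostly to 1 block of names: 87 of the 92 member hairpins numbered 6900 to 7118 (94.6%) ended there. The introns had a median length of 389 bases, so most hairpins were the tail of a longer intron. In 8 of the 203 the hairpin matched both ends of its intron, the arrangement of a classical mirtron. Of all member hairpins 82.8% lay in an intron, against 47.3% of earlier-numbered ones. The 514 earlier-numbered hairpins include some with no strand listed among the miRNAs here. Of the 339 with a listed strand 51.6% lay in an intron and 3.54% ended at an intron end. Late-numbered hairpins without a member lay in an intron in 59.1%.

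**Figure D4:**
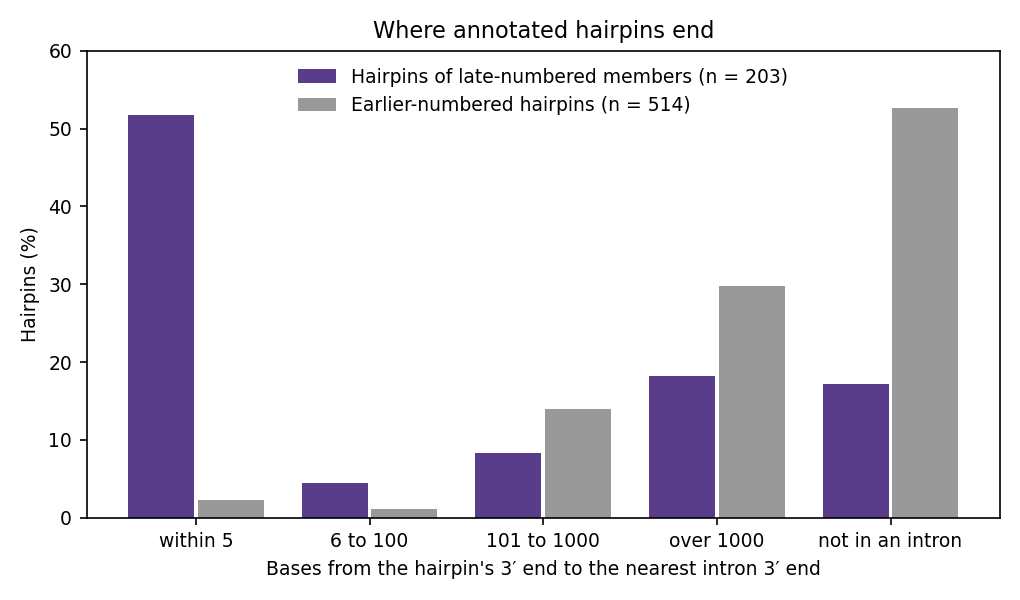
Percentage of annotated hairpins (vertical axis) by the number of bases from the hairpin's 3′ end to the nearest intron 3′ end (horizontal classes), for 203 hairpins of late-numbered members and 514 earlier-numbered hairpins. The class within 5 bases holds 51.7% of the first and 2.33% of the second.

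The annotated mature strands ended accordingly, which partly follows from picking hairpins by their distance to an intron end. These ends are those of the RefSeq sequences and were not read from the libraries. Introns end in AG, and 60 of the 81 members from the 3p strand of these hairpins ended in AG (74.1%), as miR-7079-3p and miR-6911-3p do in the sequences above. Of the 56 matched 3p members of other hairpins 12.5% did. Of the 81, 60 ended on the last base of the intron and 79 within 2 bases of it. The other 41 members from such hairpins were 5p strands.

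Changes with LIN28B were then counted by position, in the fit that tested all 279 members. The 122 members at intron ends had a median mean value of 0.62, and of all members under a mean of 1 1.33% were called. Of the 122 members 6 were higher (4.92%) and 1 was lower (0.82%), under the 12.2% and 14.8% of all 849 miRNAs. Those higher were miR-3062-5p, miR-7079-3p, miR-7068-3p, miR-7043-3p and both strands of miR-7091, and miR-6992-5p was lower. Their median log2 change was 0.12, against 0.04 for all 279, and 80 of the 122 had a change above 0, against 157 of 279. Their summed values were 198.0, 197.1 and 187.2 in ME and 233.3, 242.7 and 242.4 in L28BME. The L28BME sums were all higher, 1.23 times the ME mean. Only 6 of the 122 averaged 10 or more, among them the called miR-3062-5p and miR-7079-3p (means of 12.9 and 16.3 over the 6 libraries). The part of single members in this sum was not computed. The ratio of the mean sums was 1.14 for members in a snoRNA or scaRNA, 0.966 for those elsewhere in a gene, 0.890 opposite another miRNA, 0.689 in other places and 0.678 without a RefSeq entry, the class that holds miR-5099. Such sums weigh abundant members most. In other places 2 of the 33 members averaged 10 or more, and 17 of 33 had a change above 0 (median 0.05). Without a RefSeq entry 2 of 30 averaged 10 or more, and 18 of 30 had a change above 0 (median 0.04).

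A snoRNA or a scaRNA, the related guide RNA of Cajal bodies, held 10 members. By limma 4 of them were higher and 0 lower: miR-5121, both strands of miR-3068, and miR-3069-3p inside Scarna13. All 849 miRNAs had 12.2% higher and 14.8% lower, and calls were more frequent at high levels, with 52.4% of the members at a mean of 10 or more called. Of these 10 members 4 averaged 10 or more. miR-3535, also in a snoRNA, had a change of -0.27 (adjusted p = 0.0506 in this fit). The 10 had a median mean value of 3.54, above the 0.62 of the intron-end members. Of the 10, 8 had a change above 0, with a median of 0.42. Of the 80 members elsewhere in a gene 4 were higher and 5 lower, with a median of -0.08, and of the 33 in other places 2 were higher and 2 lower. The 30 members without a RefSeq entry had 1 higher and 3 lower. These classes were set with the changes in view, and their differences were not tested.

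Of the members 4 lay opposite another miRNA, and 0 of these passed in the fit over 849 miRNAs. The most abundant, miR-3074-5p, lies opposite Mir24-1 on chromosome 13 and Mir24-2 on chromosome 8. It had 12.8, 14.3 and 14.7 in ME and 13.8, 10.4 and 9.37 in L28BME, with overlapping groups (log2 change -0.31, adjusted p = 0.226 in that fit). miR-24-3p, from the facing strands, was far more abundant at 7941 ± 483 in ME and 7099 ± 474 in L28BME (SD over 3 libraries; log2 change -0.16, adjusted p = 0.155 in the same fit).

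The motif GGAG, searched on the hairpin's own strand, was present in 47.3% of the 203 member hairpins, in 54.0% of the 298 late-numbered hairpins without a member, in 37.7% of the 514 earlier-numbered hairpins and in 44.5% of all 1005 hairpins of the annotation. The whole hairpin was searched, not the loop alone, and median lengths were 68 bases for members and 82 for earlier-numbered hairpins. A match describes these letters only and does not show whether LIN28B binds there.

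Both strands were members for 41 hairpins. The 3p strand was the more abundant in 24 and the 5p strand in 17. At intron ends the 3p strand led in 13 of 21 and elsewhere in 11 of 20. The ratio ranged widely between hairpins: miR-6967-3p averaged 17.3 against 1.16 for miR-6967-5p, and miR-3066-5p averaged 34.4 against 3.40 for miR-3066-3p. In 11 hairpins both strands averaged 1 or more, and in 7 of these they had a change of the same sign. miR-3068 and miR-7091 had both strands called, the latter with log2 changes of 0.84 (5p, adjusted p = 0.0119) and 0.82 (3p, adjusted p = 0.0136). The partner of miR-6992-5p, miR-6992-3p, had 12 reads in each group and a log2 change of -0.01 (adjusted p = 0.979), and the difference between these strands was not tested.

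**Figure D5:**
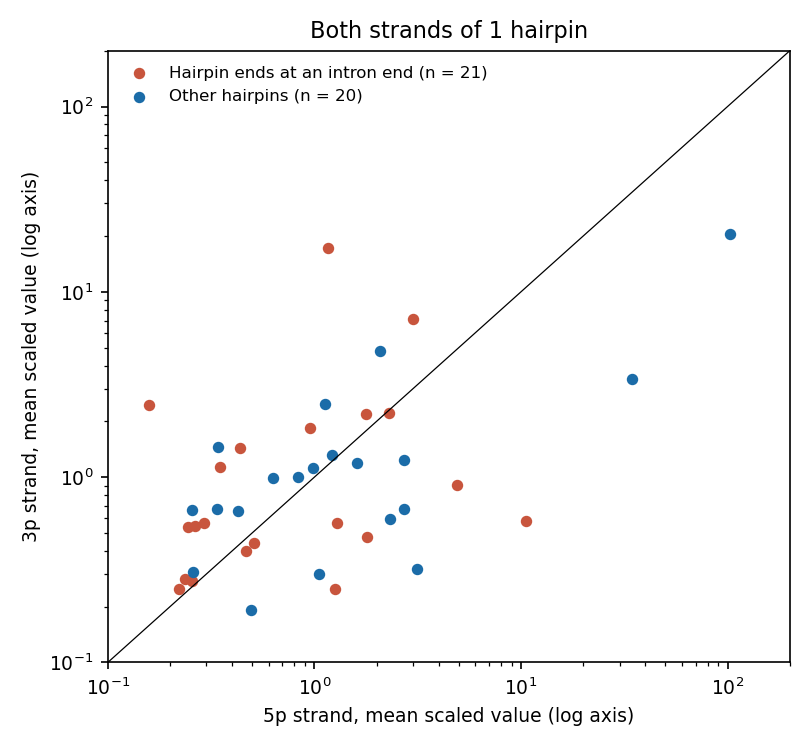
Mean scaled value over the 6 libraries of the 3p strand (vertical log axis) against the 5p strand (horizontal log axis) for the 41 hairpins with both strands among the members, coloured by whether the hairpin ends at an intron end. Points lie on both sides of the line of equal values, 24 above and 17 below it, and miR-3068 lies at the far right.

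Some members cannot be assigned to 1 source. Of the 249 matched members 7 had more than 1 annotated place. The sequences of miR-3473a, miR-3473b and miR-3470b each occur in more than 100 other annotated genes, so reads of these 3 cannot be assigned to their hairpins alone. In the fit over 849 miRNAs 0 of the 3 were called.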

How the data were processed

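Total RNA of sorted GMLPs was sequenced after a QIAseq miRNA preparation, per the labels' protocols, a kit that adds molecular identifiers. The aligner, the miRNA reference and the use made of those identifiers are not given in the sources. The genome build was GRCm38, per the submitters' processing notes. The authors deposited 1452 features in 1 table, and its 268 piRNAs were left out. The deposited values are treated as a scaled signal. Per the file headers they are CPM, yet column sums ran from 819100 to 1220000. In each library 100% of values were whole multiples of its smallest (tolerance 0.001), and whole reads were recovered from them. The authors' deposited comparison holds log2 fold changes, a signed fold score and p-values for L28BME against ME, and per the file headers its tool is not named.

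The main test was limma's trend fit on log2(value + 1) of miRNAs at 5 or more in at least 3 libraries, two-sided, with Benjamini-Hochberg adjustment over all 387 and calls at an adjusted p under 0.05. Folds are ratios of group means, except the ratio of miR-3970, which is from pooled reads. Alternatives were the fit over all 849 detected miRNAs, edgeR's quasi-likelihood test on recovered reads, DESeq2, other scalings, filters and pseudocounts (0.5 and 5), and each library left out. The edgeR fit over 849 was added after seeing the data. Sequences are from RefSeq (GRCm38.p6) and loci from GENCODE M21 (GRCm38). An intron end was matched within 5 bases. Column names give a library number and not the labels' replicate number, so nothing was paired. The fit was tested on simulated data in which randomly picked miRNAs changed in both directions. These data held no loss of let-7 as a class, so the simulation does not bear on the choice of scaling. Named are members past the threshold, the 10 most abundant, their partner strands, the 4 most abundant at each side of the detection limit, and others as marked. Members and lists were chosen with earlier results of these data known. Software was limma 3.58.1, edgeR 4.0.16 and DESeq2 1.42.0 under R 4.3.3, with scipy 1.17.1 and matplotlib 3.10.9.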

Additional observations from a re-analysis of the deposited data

How the results depend on the processing

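Of the 19 calls 5 were the same in all 18 alternatives: miR-3062-5p, miR-5121, miR-7079-3p, miR-5123 and miR-3068-5p. miR-7676-3p, miR-3101-5p and miR-6481 were the same in the 15 that tested them. They, miR-5125 and miR-6992-5p fall under the filter when a library of the group where they are high is left out, so those settings say nothing about them. Members higher numbered 10 in the main test (27.8%, against 24.0% of all tested miRNAs) and 16 with no filter (5.73% against 9.04%). Above 0 in at least 4 libraries they numbered 17 (6.09% against 12.2%), and 18 by edgeR (6.45% against 12.5%). At 1 or more in at least 3 libraries they numbered 20 (15.5% against 18.9%). With each library left out they numbered 5 to 10. There were 6 without L28BME library 005 (18.2% against 18.8%) and 5 without 006 (15.6% against 17.5%). Members lower numbered 9 (25.0% against 32.0%) and, with each library left out, 5 to 7. There were 5 without ME library 002 (14.7% against 25.0%). Plain library size gave 20 members higher (54.1%) and 1 lower (2.7%). Over all tested miRNAs it gave 255 higher (63.3%) and 33 lower (8.19%), against 93 and 124 in the main test. Under it miR-6539 moved to 0.0071, miR-3535 to 0.22, miR-8103 to 0.14, miR-6399 to 0.31 and miR-3066-5p to 0.30, and miR-3968, miR-5099, miR-6412 and miR-5100 lost their calls. With let-7 reads outside the total the difference in member share was -0.0482 percentage points, against 0.0277. miR-6992-3p moved to 0.019 by edgeR over 849 miRNAs (adjusted p = 0.99). DESeq2 called 7 members higher and 7 lower, 38.9% of those tested, against 48.8% of all tested miRNAs. It lost miR-5125 (adjusted p = 0.0765), miR-3068-3p (0.0615), miR-3535 (0.0668), miR-6911-3p (0.126) and miR-8103 (0.168). miR-3535 and miR-8103 also lost their calls by edgeR on reads (0.0534 and 0.0535) and with the total without let-7 (0.159 and 0.122). The cause of these moves was not tested. No paired analysis was possible because library numbers in the columns are not the labels' replicate numbers. Of the 150 members under a mean of 1, where the pseudocount of 1 also shrinks changes, 2 passed; the part of depth in this was not tested.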
